A study of Mus musculus with 45 samples.

Results

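The Slit ligands and their Robo receptors were followed through the conversion of mouse fibroblasts into muscle cells and muscle progenitors. The 6 genes Slit1, Slit2, Slit3, Robo1, Robo2 and Robo4 were chosen by family name out of 35675 genes that were summed from the deposited transcript table. Of the 6, 5 passed the filter on low counts, as did 17325 genes in all; Robo4 did not. Slit3 and Robo2 had been noted from these same data as differing between induced progenitors, myoblasts and the F/R/C arm, so their levels in those groups are a description without a test. Slit proteins are large secreted ligands that bind heparan sulphate, and Robo proteins are their single-pass receptors on the cell surface. In the nervous system Slit binding to Robo repels growing axons through regulators of small GTPases, and the pair also acts on cell migration and adhesion outside it. In skeletal muscle, Slit and Robo genes are studied in the migration of muscle precursors and in the adhesion and renewal of satellite cells, the Pax7-positive stem cells of adult muscle.

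Bulk RNA was sequenced from 45 libraries in 15 groups of 3, all with the genotype Tg:Pax7-nGFP/C57BL6;DBA2, that is, with a nuclear GFP reporter of Pax7 also in the controls. The starting cells were untreated mouse embryonic fibroblasts (MEFs) with MyoD, the muscle-determining transcription factor, under doxycycline control. These cells received doxycycline for 2, 4, 6, 8 or 10 days, either alone (MyoD alone, labelled as myotubes) or together with small molecules abbreviated F/R/C in the labels (labelled as muscle fibers and progenitor cells). Bulk induced myogenic progenitor cells (iMPCs) had been kept in medium with F/R/C after 13 days of doxycycline and F/R/C, and the design text calls them clones that no longer need doxycycline. Pax7-positive iMPCs and Pax7-positive myoblasts were purified by cell sorting on the reporter, and bulk primary myoblasts from skeletal muscle were untreated. The labels do not say whether replicates came from separate cultures or animals, so p-values measure only the spread between these libraries.

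Totals ran from 15.6 to 36.3 M estimated reads per library, with a median of 22.1 M, and the 4 deepest libraries did not lie wholly outside the other 41 for any of the 6 genes. Levels are CPM, counts scaled by the TMM-adjusted library total. The sorted libraries were quantified with another fragment setting than the unsorted ones, so sorting and that setting cannot be told apart. In the marker check, the summed level of 6 fibroblast markers was 6440 to 9694 CPM in MEFs and 170.2 to 434 CPM in the myoblast libraries, and 6 muscle differentiation markers were at 50.7 to 123 CPM in MEFs and from 6074 to 29237 CPM with MyoD alone. Pax7, Myf5 and Calcr had at most 3 reads in every MEF library. Endothelial, glial and immune markers stayed at or below 11.2 CPM in sum in all libraries. A change in a bulk library can come from fewer cells of a type or from less RNA per cell, and these cannot be told apart.

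Where the forms of a gene differed, the sequences that set them apart are shown first, read from GENCODE M21 transcripts on GRCm38. The data bear on Slit2 transcripts that differ in 2 small coding exons, among other parts. The gene lies on the plus strand of chromosome 5 (47983138 to 48307733). The exon of 24 bases is chr5:48220967-48220990 and the exon of 12 bases is chr5:48191003-48191014. Each is printed in capitals between the last 12 and the first 12 bases of the neighbouring exons in the transcript.
Slit2 exon of 24 bases: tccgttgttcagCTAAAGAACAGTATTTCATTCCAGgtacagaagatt
Slit2 exon of 12 bases: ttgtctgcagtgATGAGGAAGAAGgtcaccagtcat

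Robo1 (chromosome 16, plus strand, 72308306 to 73046095) has 2 main transcripts that share every exon but the first. The upstream first exon is chr16:72563700-72563783 and the downstream one is chr16:72663149-72664194. The last 24 bases of each first exon, all coding, are shown in capitals, followed by the first 12 bases of the shared second exon.
Robo1 upstream first exon: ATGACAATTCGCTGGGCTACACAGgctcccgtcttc
Robo1 downstream first exon: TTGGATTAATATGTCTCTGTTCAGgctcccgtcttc

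Slit2 and Slit3 are also host genes of a microRNA, miR-218, which lies on the same strand as its host in intron 16 of the Slit2 transcript with both small exons and in intron 14 of the main Slit3 transcript. RefSeq (GRCm38.p6) gives the same 21-base mature 5p strand for both loci, at chr5:48223966-48223986 and chr11:35616840-35616860. It is shown with its seed, bases 2 to 8, in capitals, since both host genes are members. The libraries were made from poly-A RNA, and the mature microRNA was not analysed here.
mmu-miR-218-5p: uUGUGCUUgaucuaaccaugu

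Among the ligands, Slit1 was the gene that rose with MyoD. Slit1 (chromosome 19, minus strand, 41600257 to 41743665) is best known from the developing brain. In MEFs it was near the detection limit, at 0.220, 0.279 and 1.01 CPM. After 2 days of MyoD alone it was at 2.24, 3.84 and 3.24 CPM, after 4 days at 39.95, 63.2 and 61.1 CPM, and after 10 days at 78.3, 113.8 and 45.8 CPM. All 15 libraries of MyoD alone were above all MEF libraries, and the 12 libraries from day 4 onward lay between 39.95 and 113.8 CPM. Against MEFs, Slit1 rose by 2.70 ± 0.88 (SE, n = 3 and 3) on the log2 scale on day 2 (edgeR adjusted p = 0.016) and by 7.38 ± 0.94 on day 10 (edgeR adjusted p = 2.5e-07). The day 2 call was lost without MEF replicate 1 or 2 (adjusted p = 0.077 and 0.067). Calls needed an adjusted p below 0.05 together with a change of 1 or more, up or down, on the log2 scale. By that rule 2 of the 5 members that passed the filter were called against MEFs on day 2 and on day 10, Slit1 upward and Slit3 downward, where 22.4% and 18.9% of all genes tested were called.

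With F/R/C, Slit1 also rose from the MEF level, and it was called lower than with MyoD alone on days 8 and 10. Its levels with F/R/C were 1.47, 2.81 and 1.70 CPM on day 2, 9.83, 21.9 and 46.7 CPM on day 4, and 18.6, 23.9 and 45.3 CPM on day 6. On day 8 they were 12.1, 9.56 and 27.8 CPM, and on day 10 they were 5.05, 3.94 and 26.2 CPM. Replicate 3 was the highest of its group on days 4 to 10. The libraries with MyoD alone and with F/R/C did not overlap on days 6, 8 and 10. Among libraries of the same replicate number, which deviated together on days 2, 4 and 6, Slit1 was higher with F/R/C in 0 of 3 pairs on each of those days. The F/R/C arm had less Slit1 on day 8 (log2 fold change -2.11 ± 0.69, edgeR adjusted p = 0.019) and on day 10 (-2.75 ± 0.71, edgeR adjusted p = 0.0026). The day 8 call was lost without replicate 2 of MyoD alone, or replicate 1 or 2 with F/R/C (adjusted p from 0.064 to 0.093). Of the 3 members tested between the arms (Slit1, Slit2 and Robo1), none was called on day 2, 4 or 6 and only Slit1 on days 8 and 10. On day 6 Slit1 passed when only those 2 groups were fitted (-1.10, adjusted p = 0.034). The background was 4.93%, 13.2%, 15.4%, 18.7% and 23.3% of all genes on days 2, 4, 6, 8 and 10. The F/R/C effect on day 10 minus that on day 2 was -2.12 ± 1.01 for Slit1 and missed the threshold (edgeR adjusted p = 0.18), as did Slit2 and Robo1, where 6.01% of all genes were called. Without replicate 3 of the F/R/C group on day 10 it passed for Slit1 (-3.50, adjusted p = 0.026). Against the same MEF libraries, Slit1 with F/R/C was 2.07 ± 0.89 higher on day 2 but missed the threshold (edgeR adjusted p = 0.069), and it rose by 4.63 ± 0.87 by day 10 (edgeR adjusted p = 5e-05). On day 10 it was the only one of the 3 tested members that was called, and on day 2 none was, with a background of 20.4% on day 2 and 34.8% on day 10. The day 2 difference passed with DESeq2 (adjusted p = 0.027), when only these groups were fitted (0.044), in the time course alone (0.042) and without MEF replicate 3 (0.038).

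Markers of other cell types moved with Slit1 in part. The summed level of 6 neural markers was 25.4 to 48.4 CPM in MEFs. Day 4 gave 170.7 to 240 CPM with MyoD alone and 201 to 309 CPM with F/R/C, and day 6 gave 230 to 300 CPM and 277 to 324 CPM. The sum was thus not lower with F/R/C on those days, while mean Slit1 was 26.1 against 54.7 CPM and 29.25 against 64.95 CPM. On day 10 the sum reached 239 to 473 CPM under MyoD alone, and 104.7 to 209.7 CPM when F/R/C was present. The neuronal marker Elavl3 had at most 3 reads in every library of MyoD alone, which held for no F/R/C group. Dcx was at 182.9, 392 and 74.4 CPM on day 10 of MyoD alone, more than the other 5 markers together in replicates 1 and 2 but not in replicate 3. The part of neural cells in the Slit1 levels was not tested.

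In established cells, Slit1 was seen mainly in bulk iMPCs. Bulk iMPCs had 24.7, 18.9 and 10.5 CPM and bulk myoblasts 5.92, 2.03 and 0.182 CPM. Pax7-positive iMPCs had 2.25, 1.13 and 1.14 CPM and Pax7-positive myoblasts 1.41, 0.424 and 2.12 CPM. Both sorted groups and the bulk myoblasts lay below every bulk iMPC library. The sum of the muscle differentiation markers was 16973, 12592 and 14512 CPM in bulk iMPCs and 595, 1069 and 674 CPM in Pax7-positive iMPCs. In bulk myoblasts it was 24281, 11290 and 758 CPM, and in Pax7-positive myoblasts 3208, 4144 and 10047 CPM. The replicates had the same order as for Slit1 in bulk myoblasts but in none of the other groups. The part of differentiated cells in the Slit1 levels was not tested. Slit1 was higher in bulk iMPCs than in bulk myoblasts by 2.76 ± 0.73 on the log2 scale (edgeR adjusted p = 0.0041), a call lost when only these 2 groups were fitted (adjusted p = 0.14). Pax7-positive iMPCs were lower than bulk iMPCs (log2 fold change -3.57 ± 0.77, edgeR adjusted p = 0.00032). The difference between Pax7-positive iMPCs and Pax7-positive myoblasts was 0.23 ± 0.79 (edgeR adjusted p = 0.83). Bulk iMPCs differed from day 10 with F/R/C by 0.61 ± 0.67 (edgeR adjusted p = 0.56).

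Slit2 was present in MEFs and in every library of the time course. Slit2 guides axons and migrating cells and is made by many mesenchymal cells. MEFs had 201, 104.5 and 148 CPM. With MyoD alone the libraries had 114, 57.5 and 97.8 CPM on day 2, and 150.1, 51.9 and 287 CPM on day 10. The F/R/C libraries had 228, 85.3 and 161 CPM on day 2, and 105, 60.1 and 65.4 CPM on day 10. All 33 MEF and time course libraries were between 42.5 and 287 CPM, and the arms overlapped on each of the 5 days. Between libraries of the same replicate number, which deviated together on days 2, 4 and 6, Slit2 was higher with F/R/C in 3 of 3 pairs on days 2 and 4 and in 2 of 3 on day 6. Replicate 2 was the lowest library of MyoD alone on each day. Slit2 was not called in any comparison within the time course or with MEFs. The differences between F/R/C and MyoD alone ran from 0.81 ± 0.69 on day 2 to -1.08 ± 0.69 on day 10 (edgeR adjusted p = 0.53 and 0.21).

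The iMPCs and the myoblasts differed most in Slit2 among the tested members. Bulk iMPCs had 121, 499.9 and 55.4 CPM, and bulk myoblasts 3.28, 2.93 and 2.77 CPM. Pax7-positive iMPCs had 37.0, 23.8 and 3.88 CPM, and Pax7-positive myoblasts 1.16, 0.0706 and 1.63 CPM. No iMPC group overlapped with its myoblast counterpart. Slit2 was higher by 6.24 ± 0.87 on the log2 scale in the bulk cells (edgeR adjusted p = 2.9e-06) and by 4.56 ± 0.86 in the sorted cells (edgeR adjusted p = 5.6e-05). Within iMPCs the Pax7-positive cells were lower than the bulk cells (log2 fold change -3.38 ± 0.75, edgeR adjusted p = 0.00042), and this call was lost when only these groups were fitted (adjusted p = 0.05). Bulk iMPCs against day 10 with F/R/C gave 1.55 ± 0.70 (edgeR adjusted p = 0.11), and passed without replicate 3 of the bulk iMPCs (2.01, adjusted p = 0.047). With each library left out in turn, this difference ran from 0.20 to 2.01 (edgeR adjusted p from 0.047 to 0.89). All 3 tested members were called between bulk iMPCs and bulk myoblasts, and only Slit2 between the sorted groups, against backgrounds of 19.6% and 30.0%. All 3 were also called between sorted and bulk iMPCs (30.3% of all genes). None was called between bulk iMPCs and day 10 with F/R/C (9.57%) or between sorted and bulk myoblasts (6.23%).

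**Figure D1:**
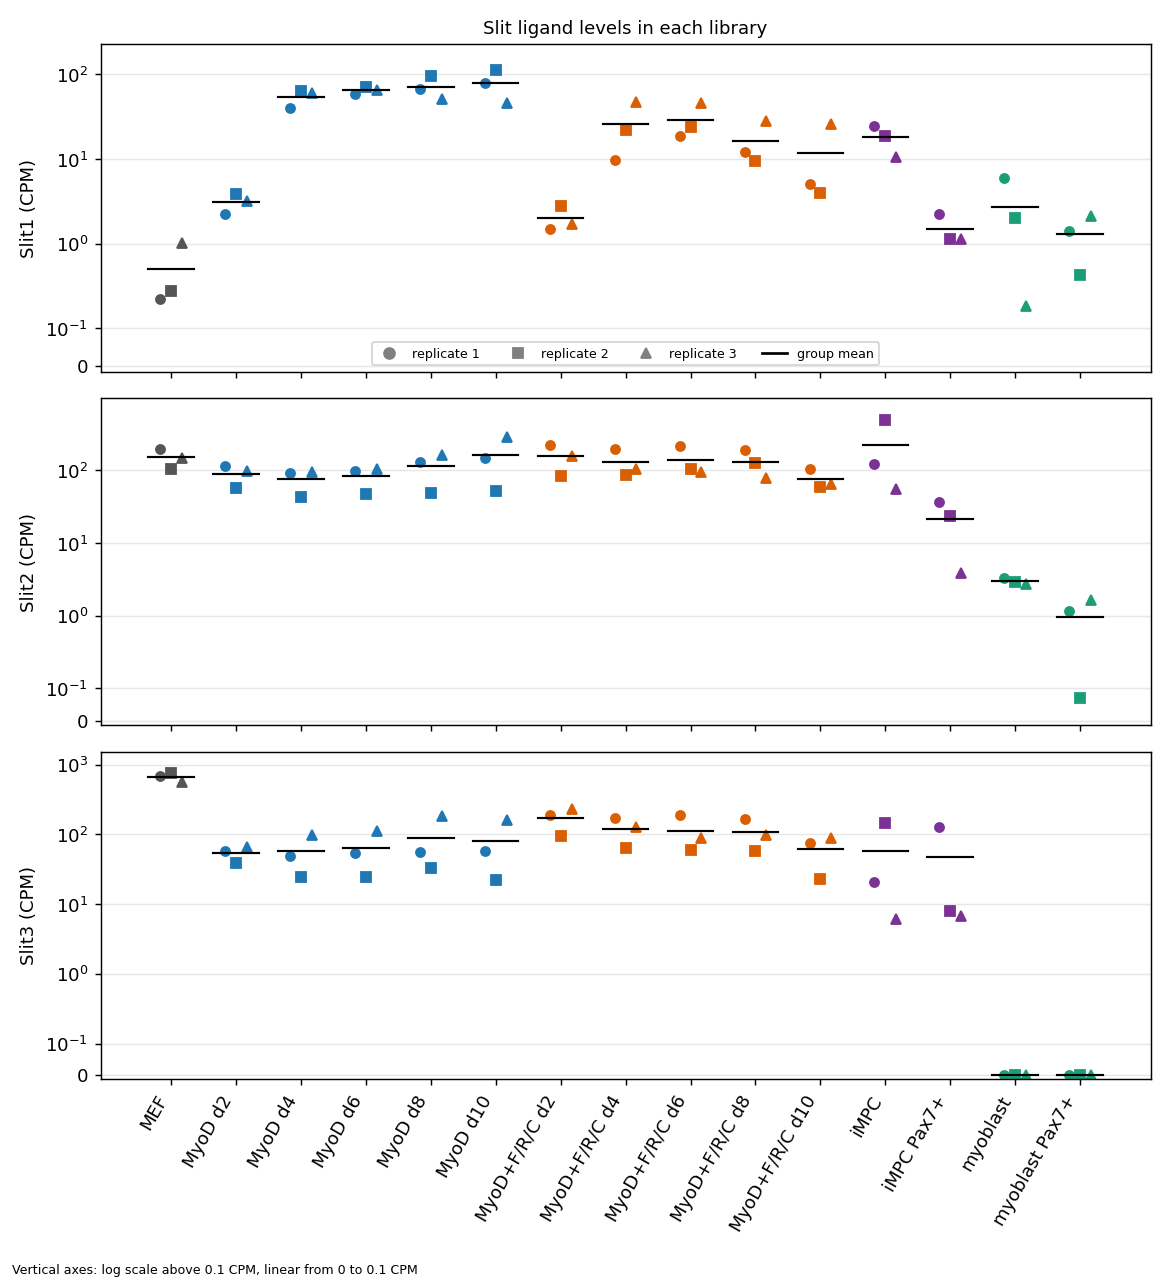
Levels of Slit1, Slit2 and Slit3 (vertical axes, CPM, log scale above 0.1 CPM and linear below) in each of the 45 libraries, by group (horizontal axis); symbols are replicates and black lines group means. Slit1 is between 39.95 and 113.8 CPM with MyoD alone from day 4, and Slit3 is at or above 563 CPM in MEFs and at 0 in all 6 myoblast libraries.

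Slit3 was the highest of the ligands in MEFs and fell with MyoD. Slit3 (chromosome 11, plus strand, 35121224 to 35708507) is a ligand of connective tissue, vessel and bone cells, and 99.8% of its reads belonged to 1 coding transcript. MEFs had 695, 769.6 and 563 CPM. With MyoD alone it was at 58.0, 39.3 and 65.5 CPM on day 2 and at 57.6, 22.1 and 163 CPM on day 10. Every library of the time course was below every MEF library. Slit3 fell by 3.64 ± 1.04 on the log2 scale by day 2 of MyoD alone (edgeR adjusted p = 0.0075) and by 3.06 ± 1.02 by day 10 (edgeR adjusted p = 0.023). Without replicate 1 or 2 of MyoD alone the day 10 call was lost (adjusted p = 0.079 and 0.13). The fibroblast marker sum was also lower on day 2, at 2750 to 3764 CPM against 6440 to 9694 CPM in MEFs. On day 10 it was at 7167, 1780 and 6025 CPM and overlapped with MEFs, while Slit3 did not. Means on day 2 against MEFs were 12.9 ± 5.46 against 285 ± 57.8 CPM for Pdgfra and 3.60 ± 1.10 against 182 ± 92.9 CPM for Dcn. Pdgfra and Dcn made up a small part of the marker sum in MEFs and fell much further than the sum did. The part of fibroblasts in the fall of Slit3 was not tested.

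In the groups for which Slit3 was noted beforehand, the values are given without a test. With F/R/C, Slit3 was at 189.9, 95.6 and 230.4 CPM on day 2, 173, 64.0 and 126 CPM on day 4, and 189, 58.9 and 87.5 CPM on day 6. It was at 166, 57.2 and 99.2 CPM on day 8 and at 76.1, 23.0 and 87.9 CPM on day 10. Group means with F/R/C against MyoD alone were 172 ± 69.1 and 54.3 ± 13.5 CPM (SD, n = 3 each) on day 2, and 62.3 ± 34.5 and 80.8 ± 73.1 CPM on day 10. The arms did not overlap on day 2 and overlapped on days 4, 6, 8 and 10.

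All 6 myoblast libraries, bulk and Pax7-positive, held 0 reads of Slit3. With 3 reads as the limit of a count of 0, levels up to 0.135 CPM in bulk and 0.163 CPM in Pax7-positive myoblasts are allowed; these limits cover counting error only. All 6 iMPC libraries had reads: bulk iMPCs were at 20.9, 145 and 6.13 CPM and Pax7-positive iMPCs at 127, 8.00 and 6.82 CPM. The lowest iMPC library thus lay above both limits. Within each iMPC group 1 library was far above the other two.

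Fibroblast markers varied in part with Slit2 and Slit3 in these same libraries. Replicate 2 of the bulk iMPCs, the highest for both genes, had 508.5 CPM of Pdgfra and 511 CPM of Dcn, both typical of fibroblasts, while replicates 1 and 3 had 44.3 and 13.2 CPM of Pdgfra and 23.5 and 19.5 CPM of Dcn. Replicate 1 of the Pax7-positive iMPCs, the highest of its group for Slit3, had 21.5 CPM of Pdgfra and 32.2 CPM of Dcn, and the other two had at most 1.09 and 2.17 CPM. The sum of the 6 fibroblast markers was 1693, 2711 and 1440 CPM in replicates 1, 2 and 3 of the bulk iMPCs. Most of the excess of replicate 2 in this sum lay in Pdgfra and Dcn, and the rest of the list differed less. In Pax7-positive iMPCs the sum was 1031, 949 and 334 CPM. Replicate 2 of that group was thus near replicate 1 in the sum, while its Slit3 was at 8.00 against 127 CPM. The sum was 274 to 425 CPM in bulk myoblasts and 170.2 to 434 CPM in Pax7-positive myoblasts. No fibroblast marker was absent (at most 3 reads in every library) from any group. The part of fibroblasts in the Slit2 and Slit3 levels was not tested.

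**Figure D2:**
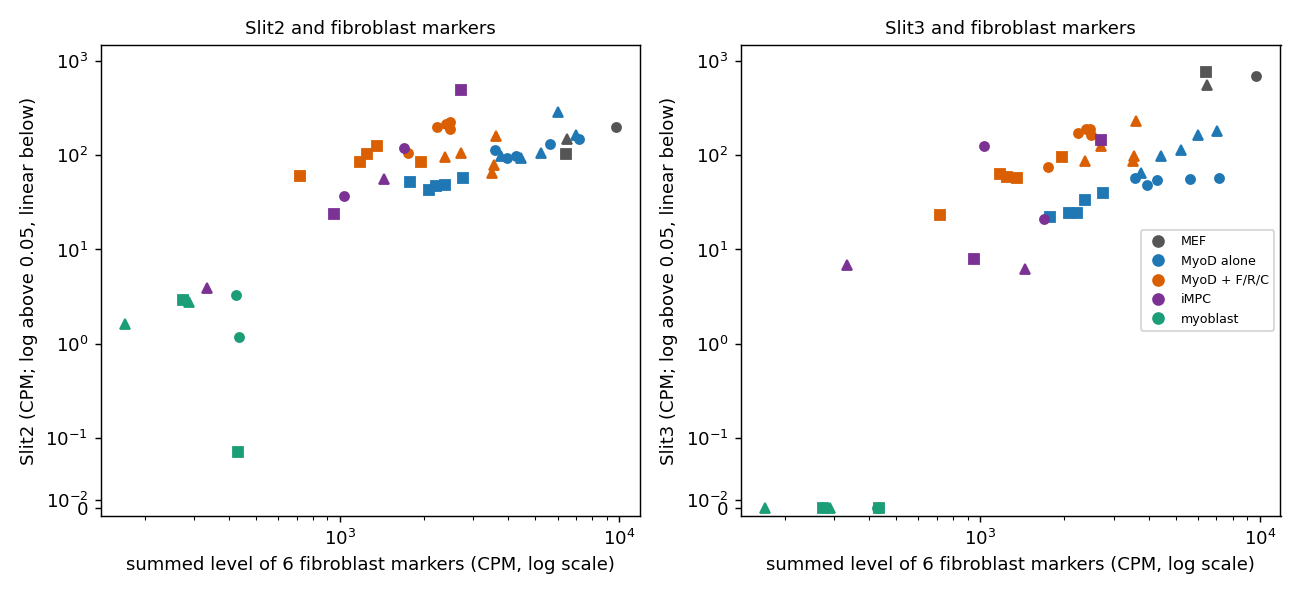
Slit2 (left) and Slit3 (right) levels (vertical axes, CPM, log scale above 0.05) against the summed level of 6 fibroblast markers (horizontal axis, CPM, log scale); each point is 1 of 45 libraries, coloured by kind of cell, with symbols for replicates as in the level plots. The myoblast libraries are at the lower left, with marker sums of at most 434 CPM, and the MEF libraries at the right, with at least 6440 CPM.

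Robo1 was the main receptor and was highest in the muscle progenitors. Robo1 is the most widely expressed Slit receptor. MEFs had 66.2, 19.7 and 21.3 CPM. With MyoD alone the libraries had 35.1, 22.4 and 31.4 CPM on day 2 and 32.1, 20.2 and 52.3 CPM on day 10. The F/R/C libraries had 83.5, 47.3 and 60.5 CPM on day 2 and 71.0, 33.3 and 35.7 CPM on day 10. On day 2 every F/R/C library was above every library of MyoD alone, with a difference of 1.10 ± 0.40 on the log2 scale that missed the threshold (edgeR adjusted p = 0.082). In the fit with the replicate number as a block, which pairs libraries of 1 number, the value was 1.09 and passed (adjusted p = 0.023). It also passed when only these groups were fitted (0.023) and with DESeq2 (0.049). The differences on the later days were 0.65, 0.49, 0.49 and 0.42 on days 4, 6, 8 and 10 (edgeR adjusted p from 0.25 to 0.42). Of these days, the arms did not overlap on day 8. In pairs of the same replicate number, Robo1 was higher with F/R/C in 3 of 3 on days 2, 4, 6 and 8 and in 2 of 3 on day 10. Against MEFs, Robo1 was not called in either arm on day 2 or 10. MEF replicate 1 was about 3 times the level of the other two, and without it Robo1 with F/R/C was called on day 2 (1.64, adjusted p = 0.0028) and on day 10 (1.19, adjusted p = 0.014). That library also held some muscle transcripts, with 49.2 CPM of Myh3, 6.90 CPM of Myog, 5.36 CPM of Mymk and 10.9 CPM of Cdh15. The other MEF libraries had 0 of the first 3 and at most 0.372 CPM of Cdh15. Other markers of these lists did not follow. The muscle progenitor sum, which includes Cdh15, was lowest in replicate 1, at 73.8 CPM against 155.8 and 126.4 CPM in replicates 2 and 3. The muscle differentiation sum was 122.7, 50.73 and 72.72 CPM in replicates 1, 2 and 3.

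Bulk iMPCs had 76.3, 57.5 and 87.5 CPM of Robo1, and Pax7-positive iMPCs 104.9, 225 and 173 CPM. Bulk myoblasts had 182, 139 and 230.4 CPM, and Pax7-positive myoblasts 197, 171 and 128 CPM. The 9 libraries of Pax7-positive iMPCs and of both myoblast groups were all above the other 36, which reached 87.5 CPM. Bulk iMPCs had less Robo1 than bulk myoblasts (log2 fold change -1.32 ± 0.40, edgeR adjusted p = 0.011) and higher in Pax7-positive than in bulk iMPCs (1.18 ± 0.40, edgeR adjusted p = 0.014). The 2 Pax7-positive groups differed by 0.02 ± 0.39 (edgeR adjusted p = 0.98), and sorted and bulk myoblasts by -0.15 ± 0.39 (edgeR adjusted p = 0.85). The first call was lost without replicate 3 of the bulk myoblasts or replicate 2 of the bulk iMPCs (adjusted p = 0.054 and 0.052), the second without replicate 2 of either iMPC group (0.083 and 0.064). Whether the difference between iMPCs and myoblasts changed with sorting was tested in a contrast added after the levels were seen, in which 24.1% of all genes were called. It gave 1.34 ± 0.56 for Robo1 and -2.52 ± 1.06 for Slit1, and both missed the threshold (edgeR adjusted p = 0.062 and 0.065). Both passed with DESeq2 (adjusted p = 0.045 and 0.037). Robo1 also passed without replicate 1 of the Pax7-positive iMPCs or replicate 2 of the bulk myoblasts (0.032 and 0.042), and Slit1 without replicate 1 of the bulk myoblasts or replicate 2 of the Pax7-positive myoblasts (0.0078 and 0.038). Slit2 gave -1.68 ± 1.10 (edgeR adjusted p = 0.25).

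Robo2 was the receptor that set the F/R/C arm apart. Robo2 (chromosome 16, minus strand, 73891839 to 74411825) is a neighbour of Robo1 and is best known in axon guidance and in the developing kidney. Its values in the F/R/C, iMPC and myoblast groups were noted beforehand and are described. MEFs had 3.87, 1.11 and 1.33 CPM, and the 15 libraries of MyoD alone lay between 1.40 and 4.04 CPM with a median of 2.23 CPM. Between MyoD alone and MEFs, which were not among the noted groups, the difference was 0.70 ± 0.79 on day 2 and 0.04 ± 0.80 on day 10 (edgeR adjusted p = 0.51 and 0.98). With F/R/C, Robo2 was at 33.2, 28.7 and 37.0 CPM on day 2, 21.6, 29.6 and 22.8 CPM on day 4, and 17.1, 34.9 and 14.8 CPM on day 6. On day 8 it was at 24.5, 43.9 and 5.99 CPM and on day 10 at 21.5, 21.9 and 3.85 CPM. The arms did not overlap on any of the 5 days, and group means with F/R/C were between 15.7 ± 10.3 CPM on day 10 and 32.9 ± 4.16 CPM on day 2. Replicate 3 on day 10 with F/R/C (3.85 CPM) lay within the range of the MEFs and of MyoD alone over all days.

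Replicate 3 was the lowest of its group for Robo2 with F/R/C on days 6, 8 and 10 and in both iMPC groups. Bulk iMPCs had 6.24, 10.1 and 1.18 CPM, and Pax7-positive iMPCs 22.1, 19.4 and 1.40 CPM. Bulk myoblasts had 0.763, 4.03 and 0.764 CPM and Pax7-positive myoblasts 0.530, 2.15 and 2.61 CPM. Both iMPC groups overlapped with the myoblasts through replicate 3 alone. In these same numbered libraries Slit1 was the highest of the F/R/C groups on days 4 to 10, and the fibroblast marker sum on day 10 with F/R/C was 1748, 719.7 and 3508 CPM in replicates 1, 2 and 3. The part of these markers in the Robo2 levels was not tested.

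**Figure D3:**
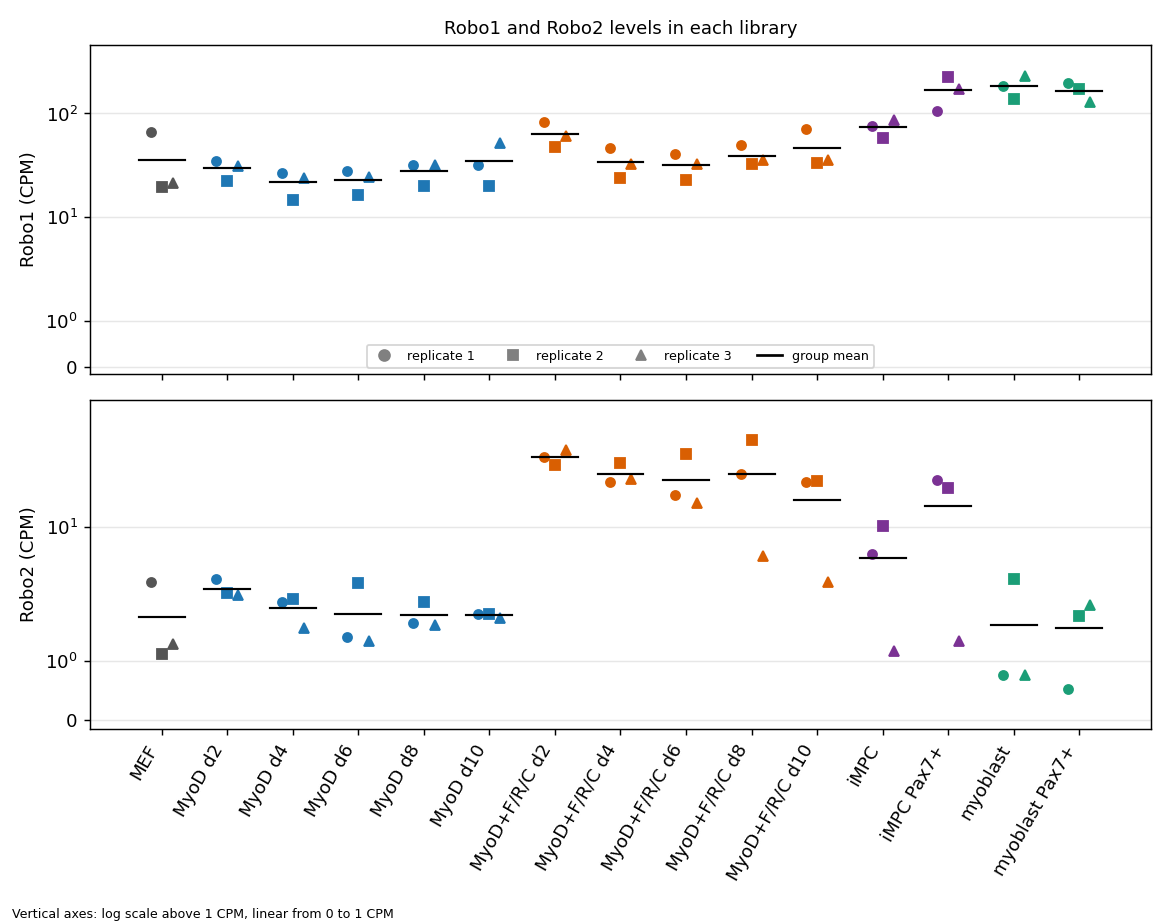
Levels of Robo1 and Robo2 (vertical axes, CPM, log scale above 1 CPM and linear below) in each of the 45 libraries, by group (horizontal axis); symbols are replicates and black lines group means. Robo1 is at least 104.9 CPM in Pax7-positive iMPCs and in both myoblast groups, and Robo2 is higher with F/R/C than with MyoD alone on each day.

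Robo4, a receptor of endothelial cells, had 5 reads in all 45 libraries together, 3 with MyoD alone and 2 with F/R/C, and its highest level was 0.0543 CPM. It was at 0 reads in MEFs and in all iMPC and myoblast libraries, and no test was made. The endothelial markers Pecam1, Cdh5, Kdr, Tek, Tie1 and Emcn summed to 0.898 to 9.35 CPM over all libraries. Robo3, the remaining Robo gene and Robo4's neighbour on chromosome 9, stayed at or below 4.66 CPM. It was at 0.776 to 4.66 CPM in the myoblasts and at 0 to 0.202 CPM in the iMPCs.

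The promoter windows of the members other than Slit1 were searched for E-boxes, CANNTG, the kind of site that MyoD binds. This motif reads the same on both strands. For Slit1, the member that rose with MyoD, no window was available, so it was not searched. RefSeq (GRCm38.p6) windows of 250 bases before a start were used, and 66.2% of 32851 such windows held CANNTG, with 13.0% holding the form CAGCTG, which is contained in it. The Robo2 window printed is at the start nearest to the transcripts analysed, chr16:74411826-74412075 on the minus strand. It is shown because Robo2 was higher with F/R/C than with MyoD alone on each day. This window held 1 match, a CAGCTG, in capitals. The Robo1 window before the downstream first exon, chr16:72662899-72663148 on the plus strand, held 3 matches and no CAGCTG. The other 2 Robo2 windows held 1 CANNTG each and no CAGCTG, the Slit2 and Slit3 windows held 0 matches, and the Robo4 window held 2, of which 1 was CAGCTG. Such matches describe these letters only.
Robo2 window: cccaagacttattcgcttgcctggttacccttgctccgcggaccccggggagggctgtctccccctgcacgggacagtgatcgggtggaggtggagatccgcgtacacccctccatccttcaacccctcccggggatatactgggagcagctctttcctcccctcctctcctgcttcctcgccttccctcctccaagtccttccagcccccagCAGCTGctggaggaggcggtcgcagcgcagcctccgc
Robo1 window: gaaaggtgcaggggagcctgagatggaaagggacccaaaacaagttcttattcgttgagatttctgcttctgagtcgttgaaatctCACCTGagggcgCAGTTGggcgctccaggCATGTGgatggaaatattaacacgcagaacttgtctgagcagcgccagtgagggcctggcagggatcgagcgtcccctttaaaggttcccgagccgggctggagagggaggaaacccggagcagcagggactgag

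**Figure D4:**
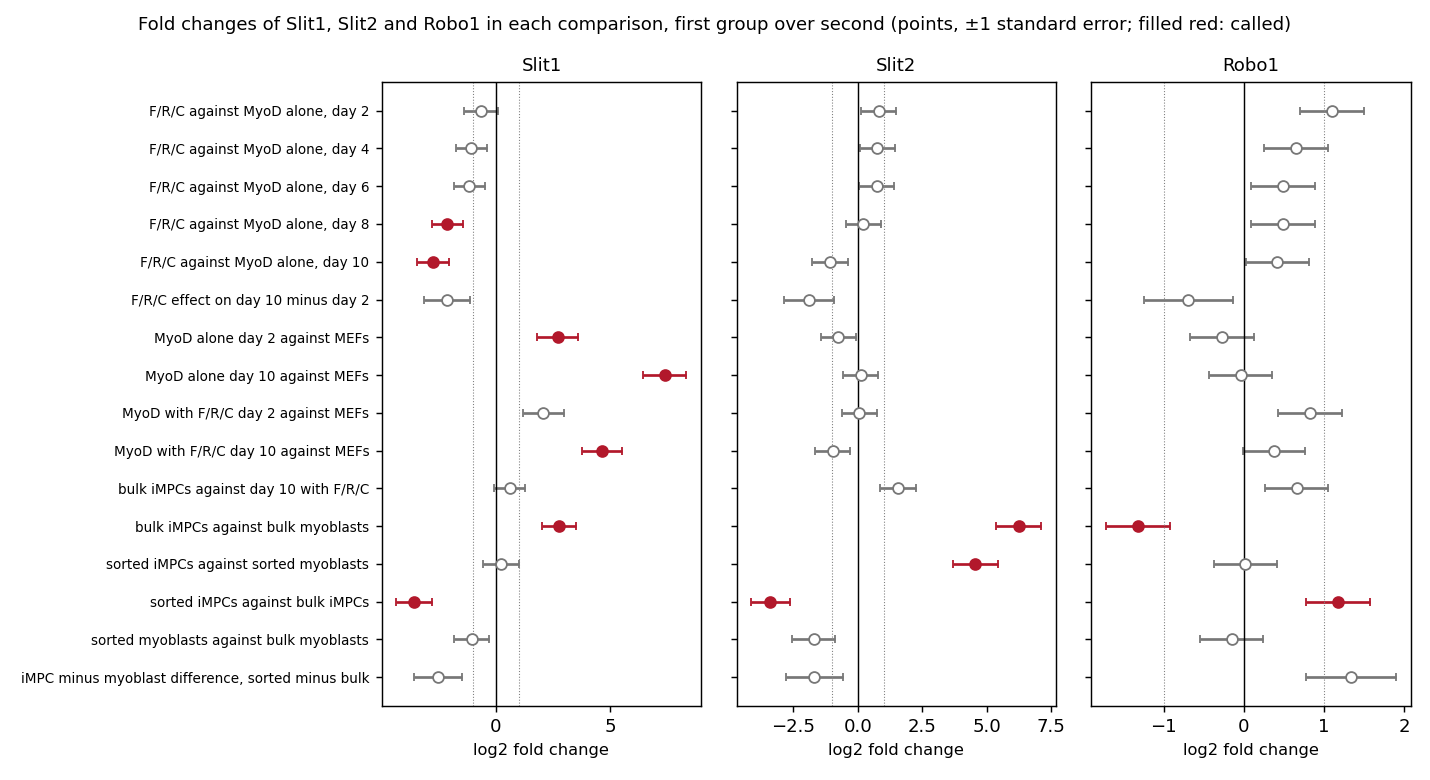
Log2 fold changes (horizontal axes) of Slit1, Slit2 and Robo1 in the 15 comparisons of the design and 1 added contrast (vertical axis), first group over second; points with bars are values ± 1 standard error, filled red where called, and dotted lines mark a change of 1. Slit1 against MEFs on day 10 of MyoD alone is at 7.38 and Slit2 in bulk iMPCs against bulk myoblasts at 6.24.

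Levels were compared between the genes per length, in TPM, a length-scaled share of all transcripts, over transcripts of at least 3000 bases. A retained-intron transcript of 516 bases took 70.1% of the TPM of Slit1 with 13.8% of its reads, so short transcripts were left out. In MEFs, Slit3 was at 254 ± 36.2 TPM (SD, n = 3), Slit2 at 33.6 ± 11.98 TPM, Robo1 at 8.85 ± 6.89 TPM, Robo2 at 0.605 ± 0.567 TPM and Slit1 at 0.180 ± 0.142 TPM. On day 10 of MyoD alone Slit1 was at 21.7 ± 7.96 TPM, beside 35.5 ± 27.7 TPM for Slit2 and 29.7 ± 27.9 TPM for Slit3. In bulk iMPCs Slit2 was at 41.2 ± 44.5 TPM, Slit3 at 19.4 ± 26.1 TPM, Robo1 at 17.6 ± 3.50 TPM, Slit1 at 4.26 ± 1.53 TPM and Robo2 at 1.69 ± 1.34 TPM. In bulk myoblasts Robo1 was at 47.3 ± 10.7 TPM and the other members were at or below 0.866 TPM on average. In MEFs the ligands Slit3 and Slit2 thus exceeded the receptors and Slit1 did not, while in bulk myoblasts the transcripts of the family were mostly Robo1. In Pax7-positive iMPCs Robo1 was at 38.4 ± 13.7 TPM, Slit3 at 12.9 ± 19.2 TPM, Robo2 at 4.26 ± 3.38 TPM and Slit2 at 3.86 ± 2.98 TPM.

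In the order of the 15 group means, few neighbouring groups were apart. For Slit3, MEFs (676 CPM) did not overlap with the next group, and the lowest iMPC group (47.3 CPM) did not overlap with the myoblasts at 0. For Slit1, the gap was between day 10 with F/R/C (11.7 CPM) and day 2 of MyoD alone (3.11 CPM). For Robo1, it was between Pax7-positive myoblasts (165 CPM) and bulk iMPCs (73.7 CPM). For Slit2, the 12 highest groups ran without a gap from 226 to 76.4 CPM, and the Pax7-positive iMPCs (21.6 CPM), the bulk myoblasts (2.99 CPM) and the Pax7-positive myoblasts (0.955 CPM) followed, each below every library of the group before. For Robo2, day 2 of MyoD alone (3.45 CPM) did not overlap with the group that followed.

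The 2 first exons of Robo1 were used in different shares, a readout that the choice of genes did not use. Of the reads assigned to the 2 main transcripts, the upstream first exon took 27.6% to 39.0% in MEFs, 20.0% to 56.5% with MyoD alone from day 2 to day 10, and 16.9% to 46.8% with F/R/C. It took 62.8%, 66.6% and 55.6% in bulk iMPCs and 67.4%, 64.0% and 70.2% in Pax7-positive iMPCs. Pax7-positive myoblasts had 67.3%, 75.5% and 73.8%, and bulk myoblasts 39.4%, 67.1% and 32.8%. The sorted groups thus lay above all MEF and time course libraries, and 2 of the 3 bulk myoblast libraries lay within their range. The shares are the authors' estimates for overlapping transcripts, rest on at least 282 reads a library, and with 3 libraries a group an exact permutation test cannot go below p = 0.1.

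For Slit2, the share of reads from full-length transcripts that hold the exon of 12 bases was 84.3%, 88.1% and 88.6% in bulk iMPCs. It was 57.2% to 69.8% in MEFs, 49.6% to 73.3% with MyoD alone and 55.9% to 68.8% with F/R/C, each library on at least 813 reads. The bulk iMPCs thus lay above all 33 of those libraries. Pax7-positive iMPCs had 93.2%, 69.4% and 83.1%, the last on 66 reads. The transcripts without this exon also lack the exon of 24 bases and end differently, so the exon itself was not measured apart from them. One of them, annotated as a target of nonsense-mediated decay, took 1.1% of Slit2 reads in bulk iMPCs. It took 25.3% in MEFs and 20.9% to 34.0% in the time course groups. The coding transcript without the exon took 9.9% in bulk iMPCs and 9.0% in MEFs. The higher share with the exon in bulk iMPCs thus went with a lower share of the first of these transcripts, which lacks it.

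**Figure D5:**
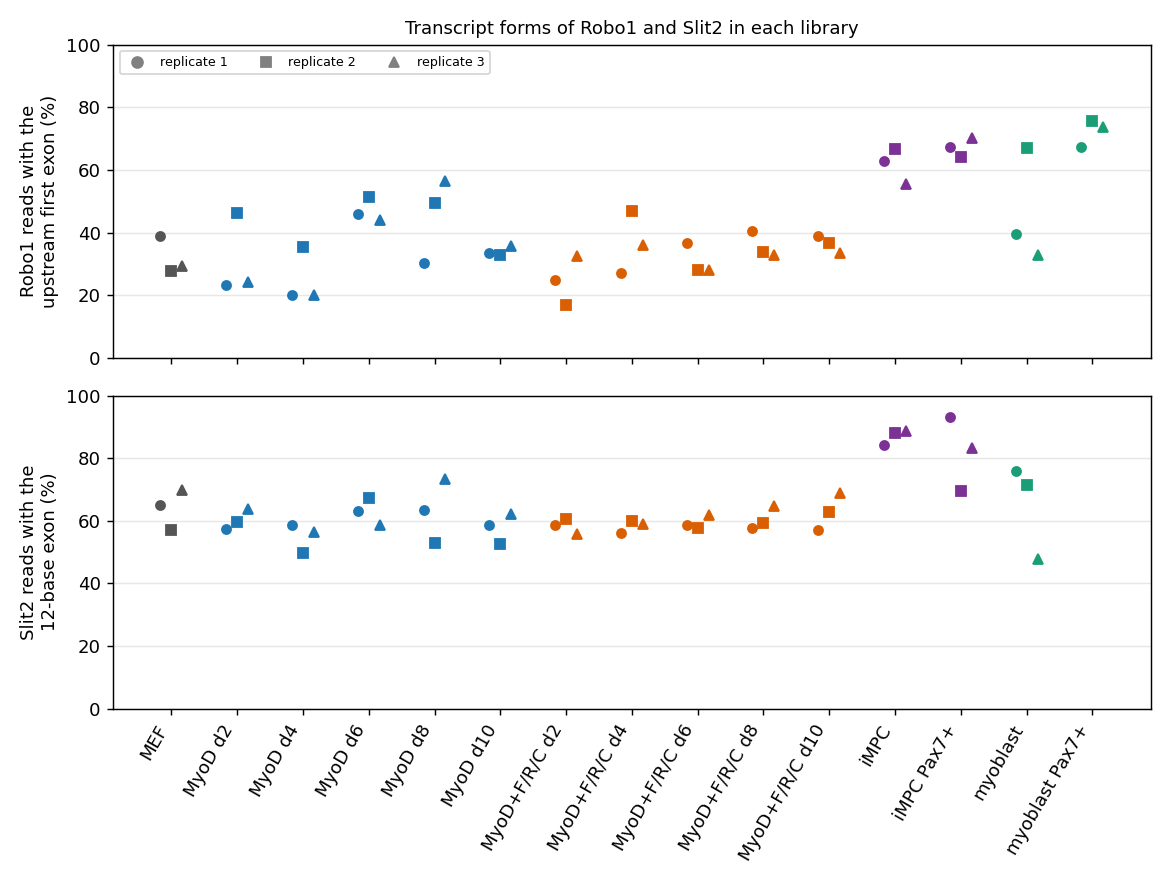
Share of Robo1 reads on the transcript with the upstream first exon (top, percent) and of Slit2 reads on transcripts with the exon of 12 bases (bottom, percent) in each library, by group (horizontal axis); symbols are replicates, and libraries with fewer than 50 reads are left out. Bulk iMPCs are at 55.6% to 66.6% in the top panel and at 84.3% to 88.6% in the bottom panel.

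Of 44 other genes of Slit and Robo signalling in 4 lists, 43 were tested. Between the arms, 1 of them was higher and 2 were lower with F/R/C on day 2, and 0 were higher and 6 lower on day 10. Over all genes 4.93% and 23.3% were called on these days. The median of the 43 was -0.42 on day 10, beside -0.07 over all genes. Among other ligands and receptors (11 genes, 10 tested), the netrin receptor Unc5c was higher with F/R/C on day 2 (18.1 ± 2.98 against 3.49 ± 1.67 CPM; log2 fold change 2.37 ± 0.66, edgeR adjusted p = 0.021). Unc5b was lower on day 10 (61.3 ± 32.8 against 319 ± 126.9 CPM; -2.38 ± 0.54, edgeR adjusted p = 0.00081). Among the heparan sulphate genes and dystroglycan (11 genes), which help Slit bind its receptors, Dag1 was lower on day 2 and the chain-building enzymes Ext2 (-1.26) and Ext1 (-1.01) on day 10. In the same list the syndecan Sdc4 was higher on days 4 and 6 (1.00 and 1.12), and Sdc3 was lower on days 4, 6 and 8 (-1.76, -1.69 and -1.70). Among the intracellular partners (16 genes), Srgap3, a GTPase-activating partner of Robo, was lower on day 2 (-1.06) and Cap1, Myo9b and Pak1 on day 10 (-1.66, -1.19 and -1.06). Of 6 genes of receptor processing and trafficking, none was called between the arms on any of the 5 days.

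Between bulk iMPCs and bulk myoblasts, 3 of the 43 were higher and 6 lower, close to the 19.6% called over all genes, with a median of -0.13 beside 0.01. Flrt3, a membrane protein that associates with Robo1, was higher (10.3 ± 11.7 against 0.515 ± 0.508 CPM; 4.23 ± 0.74, edgeR adjusted p = 6.3e-05), as was Unc5c (22.7 ± 15.8 against 1.67 ± 0.793 CPM; 3.74 ± 0.70, edgeR adjusted p = 0.00013). Robo3 was lower (-5.40 ± 0.94, edgeR adjusted p = 5.9e-05), on 1, 0 and 4 reads in bulk iMPCs and 22, 31 and 128 in bulk myoblasts. Its mean in bulk myoblasts was 4.76 TPM over all transcripts and 0.189 TPM over transcripts of at least 3000 bases. Pak1, a kinase downstream of Rac, was at 43.7 ± 6.83 against 192.8 ± 36.3 CPM (-2.14 ± 0.31, edgeR adjusted p = 5.6e-06). In the sorted cells 4 were higher and 9 lower, where 30.0% of all genes were called, with a median of -0.19 beside -0.07. Flrt3 was at 26.3 ± 6.53 against 0.280 ± 0.0890 CPM (6.57 ± 0.85, edgeR adjusted p = 2.2e-07) and Pak1 at 20.1 ± 10.8 against 101.6 ± 22.9 CPM (-2.34 ± 0.32, edgeR adjusted p = 4.9e-07).

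Against MEFs, 3 of the 43 were higher and 2 lower on day 10 of MyoD alone, and 4 higher and 13 lower on day 10 with F/R/C, comparisons that share the MEF libraries and in which 18.9% and 34.8% of all genes were called. Gpc1, the glypican that binds Slit2, rose with MyoD alone (615 ± 199 against 233 ± 118 CPM; 1.40 ± 0.31, edgeR adjusted p = 0.00099). The Robo partners Srgap1 (1.13) and Enah (1.04) rose as well, and Ntn1, which encodes netrin, fell (-2.25).

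The genes with group means most like each member were ranked by Pearson's r of mean log2 CPM over the 15 groups, among 17320 other genes, as a description without a test. The points are not independent, since 11 of the 15 groups are MEFs or cells made from them over 10 days. Slit1 was most like Rhox10 (r = 0.976), Cidea (0.971) and Fbxw7 (0.960), and the genes most like Slit2 included Cacna1c (0.969) and Ptges (0.962). Slit3 was most like Pde8b (0.987), Arhgdib (0.978) and Mfap2 (0.976). Robo1 was most like Tasp1 (0.956), Mre11a (0.955) and Med1 (0.953), and Robo2 most like Lpl (0.962), Park7 (0.942) and Slc35a4 (0.931). By Spearman's rank correlation 1 of the 3 stayed among the 3 most like for Slit1 (Rhox10) and for Slit2 (Ptges), and none for the other members. Within the family, Slit2 and Slit3 were the most alike (r = 0.94), Robo1 had r = -0.78 with Slit2 and -0.77 with Slit3, and Robo1 and Robo2 had r = -0.08.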

How the data were processed

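Per the labels' protocols, poly-A RNA was made into stranded TruSeq libraries and read from a single end on an Illumina NovaSeq instrument. The submitters' processing notes name bcl2fastq 2.19, Trimmomatic 0.36, kallisto 0.44 and edgeR 3.28, and the build GRCm38. The authors deposited estimated counts per transcript without normalisation; ambiguous reads are split among the transcripts they match. TPM, also deposited by the authors, corrects for transcript length, sums to the same total in each library and holds no depth. The mean fragment length implied by the effective lengths was 152.81 bases in unsorted and 180.03 in sorted libraries.

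Of 121843 transcripts, 121104 matched GENCODE M21, which held 99.4% to 99.8% of each library's reads. Estimated counts were summed per gene and rounded. All 45 libraries entered 1 edgeR 4.0.16 quasi-likelihood fit (R 4.3.3, TMM, filterByExpr by group, 30 residual degrees of freedom), with Benjamini-Hochberg adjustment over 17325 genes. Standard errors come from the fold change and the F statistic. Alternatives were RLE size factors, no filter, DESeq2 1.42.0, a replicate block, only the groups compared, each replicate left out and, added after the data were seen, the time course alone and TPM over long transcripts. In the check of pairing, same-numbered libraries of the 2 arms deviated together on days 2, 4 and 6 (lowest r 0.223) but not all on days 8 and 10 (lowest 0.079 and 0.062). Replicates differed by more than sampling noise in each pair. On simulated data with 200 of 17325 genes changed 4-fold, for the 2 arms on day 10, the fit recovered 74.5% of them, with 5 false calls. Apart from these changes each simulated gene had the same mean in all groups, unlike the data. The simulated rates therefore need not hold for the data. The members, the 4 pathway lists and the marker lists were chosen with earlier results of these data known. The genes named are the members, Robo3, called genes of the pathway lists, of which the rule allowed the 2 with the largest fold change per list and comparison and the others were chosen after their values were seen, and the 3 genes most like each member, of which 1 is not reported here.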

Additional observations from a re-analysis of the deposited data

How the results depend on the processing

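RLE size factors and DESeq2 lost no call of a member and kept each count of called genes within 1.5 times. When only the groups compared were fitted, 1515 genes were called on day 2 between the arms (854 in the fit of all 45 libraries), 2146 on day 10 of MyoD alone against MEFs (3279), 1147 between bulk iMPCs and bulk myoblasts (3396) and 1615 in the sorted minus bulk contrast (4172). For sorted against bulk myoblasts edgeR then called 0 genes (1080 in the fit of all libraries), with 1688 at an unadjusted p under 0.05. DESeq2, run on all 45 libraries, called 1385 there, and was not run on these groups alone. In that setting Slit1 between bulk iMPCs and bulk myoblasts was 2.71 and Slit2 between sorted and bulk iMPCs -3.32, neither called. The time course libraries alone gave 1288 genes on day 2 and 1790 for the change of the F/R/C effect from day 2 to day 10 (1041 in the main fit), which was 649 with no filter on low counts. The causes were not tested.

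With 1 replicate left out at a time, called genes ranged from 423 to 695 on day 2 between the arms, from 299 to 1245 for the change of the F/R/C effect, from 2068 to 3858 on day 10 of MyoD alone against MEFs and from 521 to 1430 between sorted and bulk myoblasts. Calls that were lost in some of these fits ranged as follows on the log2 scale: Slit1 between the arms on day 8 from -2.72 to -1.81, Slit1 on day 2 of MyoD alone against MEFs from 2.32 to 3.57, Slit3 on day 10 against MEFs from -4.08 to -2.64, Robo1 between bulk iMPCs and bulk myoblasts from -1.48 to -1.12 and between sorted and bulk iMPCs from 0.91 to 1.43. Values that changed sign were not called in the main fit. Between the arms these were Slit2 on day 8 (-0.16 to 0.56) and Robo1 on day 10 (-0.02 to 0.84), and, described without a test, Slit3 on day 8 (-0.21 to 1.26) and day 10 (-0.79 to 0.65) and the change of the Robo2 difference from day 2 to day 10 (-0.72 to 0.06). Against MEFs they were, on day 2, Robo1 with MyoD alone (-0.59 to 0.53) and Slit2 with F/R/C (-0.30 to 0.35), and on day 10 Slit2 (-0.58 to 0.51), Robo1 (-0.45 to 0.77) and Robo2 (-0.32 to 0.84) with MyoD alone and Robo1 with F/R/C (-0.05 to 1.19). Between the sorted groups they were Slit1 (-0.21 to 0.71) and Robo1 (-0.25 to 0.27), and between sorted and bulk myoblasts Slit1 (-1.61 to 0.17) and Robo1 (-0.32 to 0.04). Also described without a test were Slit3 between bulk iMPCs and day 10 with F/R/C (-2.20 to 0.42) and between sorted and bulk iMPCs (-2.95 to 1.80), and Robo2 between sorted and bulk myoblasts (-0.49 to 1.18).

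With the replicate block, called genes stayed within 1.5 times of the main fit in every comparison and no call of a member was lost. Besides Robo1 on day 2, where the numbers pair the libraries, 2 results that missed the threshold in the main fit passed with the block: Slit2 between bulk iMPCs and day 10 with F/R/C (1.83, adjusted p = 0.043) and Robo1 in the sorted minus bulk contrast (1.42, adjusted p = 0.012), groups that share only a number. Robo1 on day 10 of MyoD alone against MEFs was 0.04 with the block and -0.04 without.

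Depth limits Robo4, the iMPC values of Robo3 and the myoblast values of Slit2 and Slit3, where few or no reads were counted.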

Other observations

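The Slit2 exon of 24 bases was scattered within most groups. Its share of full-length Slit2 reads was 15.9% to 32.9% in MEFs and 40.7% to 47.3% on day 10 with F/R/C. On day 8 with F/R/C it was 30.0%, 51.1% and 10.7%, and on day 4 of MyoD alone 5.4%, 37.8% and 31.2%. Bulk iMPCs had 29.1%, 15.8% and 45.5%, and Pax7-positive iMPCs 38.7%, 69.4% and 83.1%, the last on 66 reads. No test was made.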
